A study of Rattus norvegicus with 15 samples.

Results

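Potassium channels let potassium ions leave or enter a cell and thereby set its resting potential and the shape of its impulses. The genes of their pore-forming and accessory subunits carry symbols that begin with Kcn, and every probe whose gene name on the array begins with these letters was followed here, which gave 106 probes of 86 genes among 41012 probes (35561 gene names) other than controls. Of these genes, 71 had 1 probe, 12 had 2, 1 had 3 and 2 had 4. Their signals were measured in the olfactory epithelium of 8 Brown Norway rats aged 6 weeks, for which the labels name no treatment, with 4 males (rats 1, 2, 5 and 6) and 4 females (rats 3, 4, 7 and 8). RNA of the epithelium behind each nostril, called A and B, was hybridized to 1 array, so that 7 rats had 2 arrays each and male 1 had nostril A alone (15 arrays). Whether A was the left or the right side is not in the labels. The arrays lay on 4 slides: males 1 and 2 and nostril A of female 3 on slide 1, nostril B of female 3 and female 4 on slide 2, males 5 and 6 on slide 3, and females 7 and 8 on slide 4.

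The olfactory epithelium holds the sensory neurons that bind odorants, their supporting (sustentacular) cells, basal stem cells and glands. In an olfactory neuron the odorant response is carried by cation and chloride channels, and voltage-gated (Kv) and calcium-activated potassium channels are known to end impulses and to limit firing. Inward rectifiers (Kir) and K2P leak channels hold the resting potential, and auxiliary subunits change the opening, closing or surface transport of the pores. The tissue label was checked on lists of cell type markers: 13 of 13 probes of mature olfactory neurons, 6 of 6 of immature neurons and 6 of 6 of sustentacular cells were expressed, whereas the only listed horizontal basal cell gene on the array, Krt14, was not detected. Levels are given as log2 of the signal divided by the median of its array, with a floor at -3.32. They are comparable between samples for 1 probe but not between probes. A probe detected (well above background) on at least 11 arrays is called expressed, on 1 to 10 arrays weakly expressed, and on 0 arrays not expressed.

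Most potassium channel genes of the array were expressed in the epithelium. By probe, 62 of 106 (58.5%) were expressed, 17 (16.0%) weakly expressed and 27 (25.5%) not expressed, beside 65.1%, 11.1% and 23.8% of all probes. By gene, taking the best-detected probe of each, 56 genes were expressed, 14 weakly so and 16 not at all. Of the 106 probes, 57 were detected on all 15 arrays, and single arrays detected 59 to 73. No probe was saturated. In bulk tissue a low signal cannot tell few cells with a transcript from little transcript per cell. The RefSeq gene table of assembly GRCr8 lists 97 Kcn symbols, of which 11 were not on the array by name.

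The families of pore subunits are given in turn, by the best-detected probe of each gene. Among Shaker-type Kv1 genes, Kcna1, Kcna2, Kcna4, Kcna5 and Kcna6 were expressed, Kcna3 was weakly expressed, and Kcna7 and Kcna10 were not expressed. Kcnb2, a delayed rectifier of the Kv2 family, was weakly expressed. Of the Kv3 genes, which serve fast repolarization, Kcnc1 was weakly expressed and Kcnc2 not expressed. The 3 Kv4 genes Kcnd1, Kcnd2 and Kcnd3, which carry A-type currents, were all expressed by 1 probe or more. Of the silent subunits, which form channels only together with Kv2 subunits, Kcng1, Kcng2, Kcng3, Kcns1 and Kcns3 were expressed, Kcnf1, Kcng4 and Kcnv1 weakly expressed, and Kcns2 and Kcnv2 not expressed. Kcnq1 and Kcnq5 were the expressed members of Kv7, the M-current family, while Kcnq3 was weakly expressed. In the ether-a-go-go family, Kcnh1, Kcnh3, Kcnh4 and Kcnh6 were expressed, Kcnh7 and Kcnh8 weakly expressed, and Kcnh2 (ERG1) and Kcnh5 not expressed.

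By probe, 13 of 19 of the inward rectifiers (68.4%) and 10 of 11 of the K2P leak channels (90.9%) were expressed, beside 65.1% of all probes of the array. By gene, for which no such share over the array was computed, of 15 Kir genes, 12 were expressed: Kcnj1, Kcnj3, Kcnj4, Kcnj5, Kcnj8, Kcnj9, Kcnj11, Kcnj12, Kcnj13, Kcnj14, Kcnj15 and Kcnj16. They include Kcnj3, Kcnj5 and Kcnj9, subunits of the G-protein-gated rectifiers, and Kcnj8 and Kcnj11, pores of the ATP-sensitive channels, whereas Kcnj2 and Kcnj10 were weakly expressed and Kcnj6 was not expressed. Of 10 K2P genes, 9 were expressed (Kcnk1, Kcnk2, Kcnk4, Kcnk6, Kcnk9, Kcnk10, Kcnk12, Kcnk13 and Kcnk15), and only Kcnk3 was not. Among channels opened by calcium or sodium, Kcnma1 (the large-conductance BK pore), Kcnn2, Kcnn3 and Kcnn4 were expressed, Kcnt2 was weakly expressed, and Kcnn1 and Kcnt1 were not expressed. Of 15 auxiliary genes, Kcnab2, Kcnab3, Kcne2, Kcne3, Kcnip2, Kcnip4, Kcnmb2, Kcnmb3, Kcnmb4 and Kcnrg were expressed, Kcnab1 and Kcne1 weakly expressed, and Kcne4, Kcnip1 and Kcnmb1 not expressed. The shares of the families were not tested against each other.

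**Figure D1:**
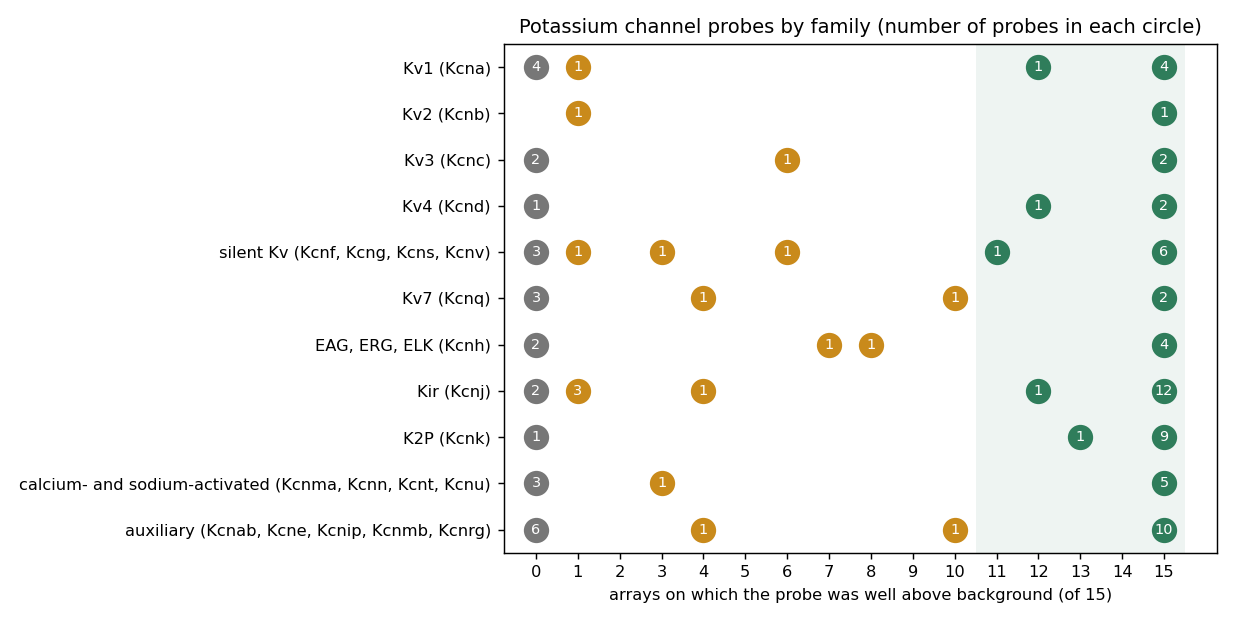
Each circle gives the number of potassium channel probes of a family (rows) that were well above background on the number of arrays shown on the horizontal axis, from 0 to 15; green circles on the shaded ground are expressed, ochre weakly expressed and grey not expressed. Most probes lay at 0 or at 15 arrays, and 9 of the 11 K2P probes were detected on all 15.

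In Kcna1, Kcnd3 and Kcng2, probes named for the same gene fell into opposite classes, so that the class of a gene depended on the probe. The first 30 of the 60 bases of such probes of Kcna1 and Kcnd3 are printed as the array files give them, with G and C in capitals, to show how different the measured stretches are:
Kcna1 A_44_P231457: GtaaCtGCaCCGCaaCtGatCaaaaCtGCG
Kcna1 A_42_P475214: GGtaaGCatGtttGaatCCGataaCattta
Kcnd3 A_44_P1052794: CaGtCCtGattGttCaaCaCaGCaaGaaaa
Kcnd3 A_44_P125646: GCGaaGaatCaGttGGGttatattGtCCaa

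The Kcna1 probe A_44_P231457 (chr4:163256939-163256998, build rn3) was detected on 15 arrays, and A_42_P475214 (chr4:163255988-163256047), 951 bases away, on 0. Their G and C content over the full probe was 45% and 35%. The Kcnd3 probes lay 1414 bases apart and were detected on 15 and 0 arrays, and both held 38.3% G and C. The array annotation placed them on chromosome 3, whereas the RefSeq table (GRCr8) has Kcnd3 on chromosome 2. For Kcng2, 3 probes within 357 bases were detected on 15 arrays each, and A_42_P520472, 28.0 to 28.4 kb from them, on 0. Those 3 held 73.3%, 71.7% and 71.7% G and C, and the undetected one 43.3%. The 4 probes named Kcnj3 were detected on 15, 15, 1 and 1 arrays. The array annotation places both probes seen on 15 arrays on chromosome 8, whereas the RefSeq table has Kcnj3 on chromosome 3, where the annotation places only A_44_P247906, detected on 1 array, so the class of Kcnj3 rests on probes whose target was not checked. Over all potassium channel probes the median G and C content was 45% (35% to 73.3%) in expressed, 43.3% (35% to 55%) in weakly expressed and 43.3% (23.3% to 55%) in not expressed probes. Over all probes of the array the medians were 43.3%, 43.3% and 40%. The part of base composition in the classes was not tested. Exons and untranslated regions are not part of the array annotation, and the place of these probes in their transcripts was not analysed here.

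The first comparison asked whether potassium channel genes differ between males and females. Probes detected on at least 7 arrays were tested, which 66 potassium channel probes of 59 genes passed, 4 of them without being expressed. All 66 were detected on at least 1 array of each sex. After averaging the nostrils, 0 of the 66 differed at a false discovery rate of 1% (0.0434% of all 27625 probes tested did), 1 differed at 5% (0.0724% of all), and 7 had an unadjusted p under 0.05, beside 17.1% of all probes (limma with Benjamini-Hochberg adjustment over all probes). The median difference, females minus males, was -0.041 over the 66 probes and 0.0092 over all probes.

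The probe past 5% was that of Kcnn4 (A_42_P602511, chr1:79706808-79706867, build rn3), the intermediate-conductance calcium-activated channel, also known from red blood cells as the Gardos channel. Its log2 level was 2.53, 2.57, 2.61 and 2.49 in males 1, 2, 5 and 6, and 1.53, 1.75, 1.89 and 1.99 in females 3, 4, 7 and 8. Every female lay below every male, and the males lay closer together than the females. Male 1 had nostril A alone, however, and in nostril A male 2 exceeded male 1 by 0.37. The SD between the nostrils of a rat was 0.32 for this probe. The means were 2.55 ± 0.05 (SD, n = 4) in males and 1.79 ± 0.20 (SD, n = 4) in females, a difference of -0.76 ± 0.10 (SE) or 1.69-fold (95% confidence interval of the difference -0.98 to -0.54, limma adjusted p = 0.0335). The single arrays did not overlap either: the males' lay between 2.21 and 3.00 and the females' between 1.41 and 2.05. On slide 1, the only slide with both sexes, nostril A of female 3 stood at 1.66 and the 3 male arrays between 2.24 and 2.90, a difference of -0.90. Slides 2, 3 and 4 each held 1 sex. With slide as a block, which rests on that slide alone, the adjusted p was above 0.05. The adjusted p ranged from 0.00282 to 0.14 over 20 alternatives and was under 0.05 in 9 of them. The summed level of the blood genes Hbb, Alas2 and Slc4a1, as a multiple of the array median, was 203 to 1414 in males and 93.3 to 841 in females. The part of blood in the Kcnn4 difference was not tested.

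Of the 66 tested probes, 6 had no overlap between the sexes over the 8 rats, a share of 9.09%, beside 11.3% of all tested probes. Next to Kcnn4 these were Kcns3, Kcna2, Kcnk2, Kcnj9 and Kcnn3. Kcns3, a silent subunit that modifies Kv2 channels, stood at 4.87, 4.67, 4.83 and 4.88 in the males and at 5.23, 5.21, 5.15 and 5.07 in the females, a difference of 0.36 ± 0.07 (SE) that did not pass 5% (limma adjusted p = 0.0982). On slide 1 its difference was 0.40. Kcna2 (Kv1.2) stood at 2.45, 2.43, 2.25 and 2.22 in males and 2.73, 2.89, 2.59 and 2.48 in females (0.33 ± 0.10, adjusted p = 0.156), and on slide 1 its difference was 0.08. Kcnk2 (TREK-1, a leak channel that responds to stretch) was 0.18 higher in the female mean, and Kcnj9 and Kcnn3 were 0.40 and 0.36 lower, with adjusted p-values of 0.187, 0.191 and 0.199. Within slide 1 these 3 kept the sign of their difference, at 0.47, -0.55 and -0.75. Kcnn2, Kcnmb4, Kcnk9 and Kcnip2 completed the 10 probes with the lowest p, with differences of 0.32, 0.20, 0.37 and -0.21 and adjusted p-values from 0.243 to 0.355. With slide as a block, the sign of Kcnn2 and Kcnk9 turned, to -0.41 and -0.37.

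**Figure D2:**
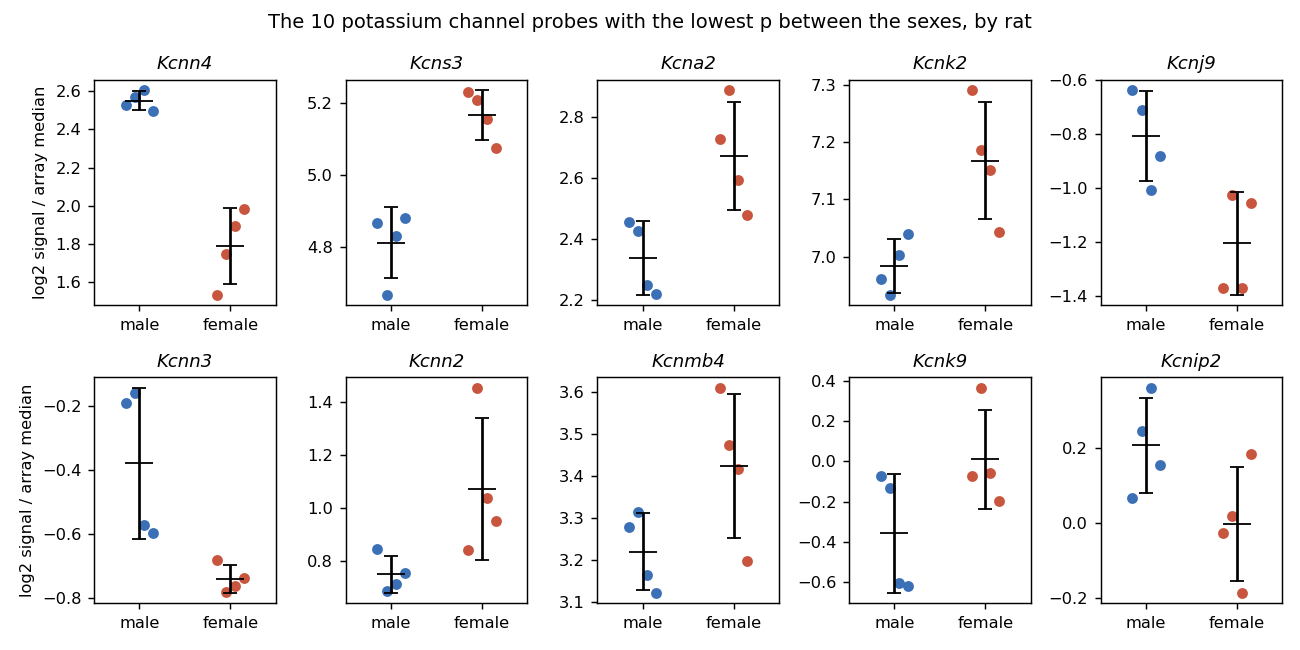
Log2 level (signal over array median, vertical axes of different range) of the 10 potassium channel probes with the lowest p between the sexes; each point is 1 rat (mean of its nostrils), blue for males and red for females, and the black lines give the mean ± SD of 4 rats. Only Kcnn4 passed 5%, with all females between 1.53 and 1.99 and all males between 2.49 and 2.61.

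The nostrils of a rat share the animal, and comparing them asks whether side matters. Over the 7 rats with both nostrils, 0 of 66 potassium channel probes differed between A and B at 1% or at 5% (0% of all 27574 probes at either threshold), and 6 had an unadjusted p under 0.05, beside 5.89% of all. Among these were Kcnn4, with A above B by 0.32 ± 0.11 (SE), Kcns3 (-0.12), Kcnj1 (-0.28), Kcnk10 (-0.11) and Kcnmb2 (-0.16), each with a limma adjusted p of 0.781. The nostril difference did not depend on sex for any potassium channel probe at 1% or 5% (0 of 66, and 0% of all probes, at either), and 1, that of Kcnj13, had an unadjusted p under 0.05 (2.36% of all), with a limma adjusted p of 1.00.

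Side was the same question for every rat, but the size of the difference between nostrils, in either direction, varied widely between genes. The SD between the nostrils of a rat was 0.17 (median) over the 66 probes and 0.12 over all probes, and ranged from 0.061 to 1.55. It exceeded 0.5 for 7 potassium channel probes (10.6%), beside 3.53% of all probes, a limit chosen after the values were seen and given as a description. These were the K2P channel Kcnk15 (1.55), the Kir channels Kcnj4 (1.27) and Kcnj12 (0.70), the voltage-gated pores Kcnd2 (1.09), Kcna4 (0.80) and Kcna1 (A_44_P231457, 0.54), and the Kv1 beta subunit Kcnab3 (0.62). Just outside the limit lay the auxiliary subunit Kcne3 (0.48).

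The 7 probes moved together within most rats. In female 3 the nostrils also lay on different slides, A on slide 1 and B on slide 2, so that its nostril and slide differences cannot be told apart, while the nostrils of the other 6 rats shared a slide. Where 1 nostril was at the floor the difference is a bound, and the SDs of Kcnk15, Kcnj4, Kcnd2 and Kcna4 rest on such values. In nostril A against B of rats 2 to 8, Kcnk15 differed by -1.87, at least 3.44, -0.55, -2.07, 1.86, -3.19 and 0.50. Nostril B of female 3 was at the floor. Nostril A of female 7 was near it, at -3.22, so the size of -3.19 is uncertain too. This probe was detected on 13 of the 15 arrays. Kcnd2, a Kv4 pore of neuronal dendrites, differed by -1.21, at least 2.54, 0.08, -1.16, 1.94, -1.86 or lower and 0.42. Nostril B of female 3 and nostril A of female 7 were at the floor. Nostril B of male 6 was near it, at -3.28, so the size of 1.94 is uncertain too. This probe was detected on 12 arrays. All 7 were higher in A in rats 3 and 6, all 7 were higher in B in rat 2, and 6 of 7 were higher in B in rats 5 and 7 and in A in rat 8, while rat 4 was split 4 to 3. The array of nostril B of female 3 held the lowest value of each of the 7 probes (for 2 of them the floor was also reached on nostril A of female 7), and 4 of them were at the floor there. The 2 highest means of the 7 were those of nostril B of male 2 and nostril A of female 8.

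Genes of brain neurons and glia, listed after these values were seen, moved the same way in most rats. Rat 4 was the exception, with only 4 of the 7 channel probes higher in A. Of 21 tested probes of that list, 18, 16, 19 and 19 were higher in A in rats 3, 4, 6 and 8, and 3, 2 and 3 in rats 2, 5 and 7. Gad2, an enzyme of inhibitory transmitter synthesis, differed by -0.39, 2.43, 2.16, -0.17, 1.14, -1.07 and 0.48 in rats 2 to 8, and the glutamate receptor gene Gria1 by -0.47, at least 3.39, 1.54, -0.71, 2.07, -1.90 and 0.71. The summed level of the brain neuron list ran from 27.6 times the array median on nostril B of female 3 and 28.4 on nostril A of female 7 to 67.1 on nostril A of female 8 and 68.2 on nostril B of male 2. The same 4 arrays held the lowest and the highest means of the 7 channel probes. The glial list ran from 14.6 to 23.8, with the lowest sum on nostril B of female 3 and the highest on nostril B of male 2. Of the 14 neuronal genes listed, Tbr1 and Eomes were not on the array by name and Grin2b was not detected on any array. Omp, the marker of mature olfactory neurons, differed by only -0.22 to 0.14 between the nostrils. The part of brain tissue or of any other cell type in these differences was not tested.

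**Figure D3:**
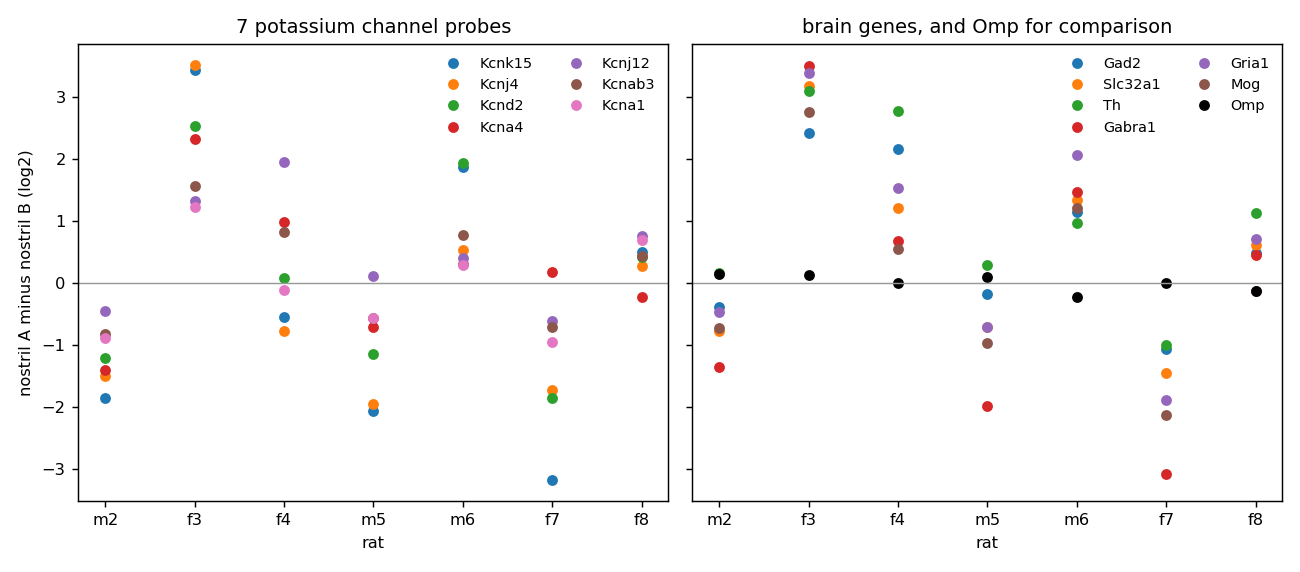
Difference between nostrils (A minus B, log2, vertical axis) in each rat with both nostrils (horizontal axis, m male, f female) for the 7 potassium channel probes with an SD above 0.5 (left) and for genes of brain neurons and glia with Omp in black (right); each point is 1 probe in 1 rat. In female 3 all 7 channel probes were higher in A, by 1.23 to at least 3.52 (4 of them were at the floor in B, so that these points are lower bounds), while Omp differed by 0.12; the nostrils of that rat alone lay on different slides.

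Differences between rats of the same sex were tested with the difference between nostrils as the error. Of the 66 potassium channel probes, 6 differed between rats at 1%, beside 2.79% of all 27574 probes, and 11 at 5% (16.1% of all). At an unadjusted p under 0.05 there were 20, beside 37.1% of all. The median F was 2.32 over the potassium channel probes and 2.37 over all probes. At the other end, the 5 lowest F values, from 0.34 to 0.76, were those of Kcnj3 (A_43_P12612), Kcnn4, Kcnk15, Kcna4 and Kcnd1. Kcnj3 is a pore subunit of the G-protein-gated rectifier, and this probe stayed between 6.39 and 6.53 in all 8 rats. A low F does not always mean rats alike, since the error can be wide. Kcnk15 ran from -1.63 to 0.32 over the rats and Kcna4 from -2.16 to -0.93, with nostril SDs of 1.55 and 0.80.

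The probe with the largest F was that of Kcng1 (A_44_P215575, chr3:159334120-159334179, build rn3), a silent subunit that modifies Kv2 channels. Its log2 level was 0.78, 0.23, -2.46 and -2.54 in males 1, 2, 5 and 6, and -1.39, -0.98, -1.87 and -2.53 in females 3, 4, 7 and 8. Males 1 and 2 stood far above all other rats, and it was detected on 11 of the 15 arrays (F = 29.4, limma adjusted p = 0.00157). Its arrays lay between -1.81 and 0.78 on slides 1 and 2 and between -2.83 and -1.69 on slides 3 and 4.

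Kcnmb3, an auxiliary subunit of the BK channel (A_44_P330736, chr2:118625153-118625212), stood at 5.83, 5.78, 4.92 and 4.74 in the males and 5.74, 5.43, 5.18 and 4.73 in the females (F = 20.3, limma adjusted p = 0.00356). Every array of slides 1 and 2, from 5.31 to 5.97, lay above every array of slides 3 and 4, from 4.59 to 5.19. Because rats 1 to 4 shared slides 1 and 2 and rats 5 to 8 slides 3 and 4, a difference between these sets of rats and one between slides cannot be told apart. The rats had come from 2 suppliers, which the labels do not assign to single rats, so supplier was not compared and its part in this difference was not tested.

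Kcnab2, a Kv1 beta subunit (A_43_P11906, chr5:169636425-169636484), stood at 1.32, 1.42, 1.90 and 1.72 in males 1, 2, 5 and 6 and at 2.10, 1.92, 1.39 and 1.06 in females 3, 4, 7 and 8 (F = 20.8, limma adjusted p = 0.00339). Here the order was opposite in the sexes: males 5 and 6 were above males 1 and 2, and females 7 and 8 below females 3 and 4.

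Kcnk6, a K2P leak channel also called TWIK2, was measured by a pair of probes 927 bases apart, whose first 30 bases are shown because both gave the same pattern:
Kcnk6 A_42_P738277: CGaaCtCaaCCaGtaGCaCatGCCtGtaaC
Kcnk6 A_44_P421565: CaCCaGGatGaGGatGaCCaGGtGGaCatt

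A_42_P738277 (chr1:84437907-84437966) stood at 3.45, 4.22, 4.44 and 3.80 in males 1, 2, 5 and 6 and at 3.36, 3.19, 3.94 and 4.07 in females 3, 4, 7 and 8 (F = 13.4, limma adjusted p = 0.00953). A_44_P421565 (chr1:84438834-84438893) stood at -0.13, 0.64, 1.04 and 0.48 and at -0.19, -0.26, 0.59 and 0.62 in the same rats (F = 14.4, adjusted p = 0.00837). On both probes males 2 and 5 were the highest rats, and male 1 and females 3 and 4 the lowest. Males 1 and 2 lay on the same slide and differed by 0.77 and 0.78 on the 2 probes. In nostril A, the only one of male 1, they differed by 0.97 and 0.82. Over 17 alternatives the limma adjusted p ranged from 0.00491 to 0.0782 for A_42_P738277 and from 0.00504 to 0.083 for A_44_P421565, and each probe passed 1% in 6 of them and 5% in 16. Of the other probes past 1%, Kcng1 kept that call in 16 of the 17, Kcnq5 in 13, and Kcnab2 and Kcnmb3 in 12 each.

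Markers of bone, which lies under the epithelium, varied between the rats in much the same order as Kcnk6. Their summed level, as a multiple of the array median, was 752, 1070, 1727 and 1031 in males 1, 2, 5 and 6 and 712, 571, 1063 and 1251 in females 3, 4, 7 and 8, so that male 5 was the highest and male 1 and females 3 and 4 the lowest here too. Of the 5 bone probes, 4 were expressed (Bglap2, Dmp1, Ibsp and Phex), Sp7 was detected on 0 arrays, and Ibsp differed between rats at 5% (F = 7.15, limma adjusted p = 0.0318). In nostril A against B of rats 2 to 8, the log2 ratio of the bone sum was 0.53, -0.11, 1.13, 0.55, 0.28, -0.33 and -0.07, and A_42_P738277 differed by 0.39, 0.14, 0.27, 0.38, -0.04, -0.22 and -0.12. The part of bone in the Kcnk6 difference was not tested.

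Kcnq5, an M-current pore, was also measured by 2 probes, which lay 47.6 kb apart and did not agree:
Kcnq5 A_44_P953483: tGtaGGtttaGataGtGtCCatattGGaat
Kcnq5 A_44_P520136: ataGCaGttGtttCtGCaaaaaCtCaGGGt

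A_44_P953483 (chr9:20341161-20341220), which the array annotation ties to an expressed sequence tag, stood at 4.26, 3.66, 4.09 and 4.61 in males 1, 2, 5 and 6 and at 3.59, 4.58, 3.73 and 3.94 in females 3, 4, 7 and 8 (F = 21.7, limma adjusted p = 0.00317). The 4 highest rats were 6, 4, 1 and 5. The same 4 rats were the highest for Alas2, an enzyme of heme synthesis in red cells, at 8.51, 8.76, 8.80 and 9.69 in rats 1, 4, 5 and 6 against 5.08 to 6.37 in the others, and Alas2 differed between rats at 1% too (F = 38.0). The part of blood in the Kcnq5 difference was not tested. The other probe, A_44_P520136 (chr9:20293598-20293657), was weakly expressed (10 arrays) and stood between -2.89 and -1.63 in the 8 rats. Male 6 was the lowest, with a value at the floor, so its level is an upper bound. With values not above background, the order of the rats on this probe is uncertain.

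**Figure D4:**
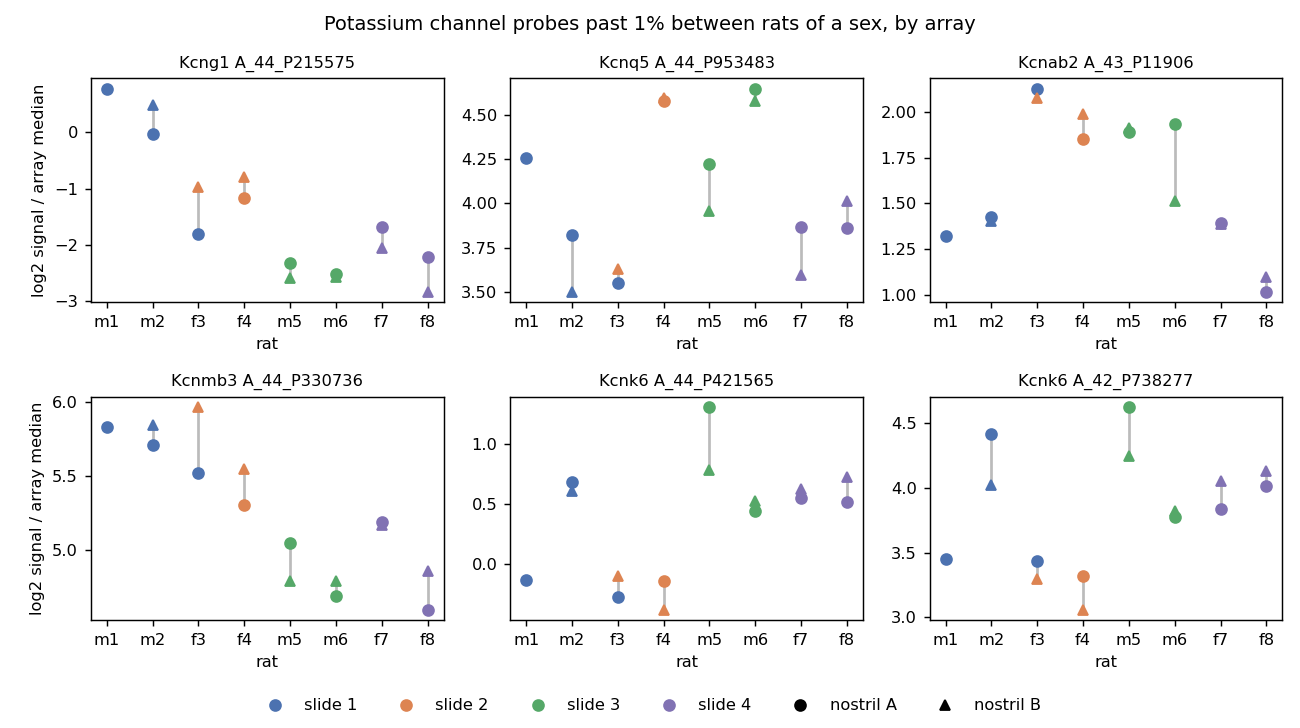
Log2 level (signal over array median, vertical axes of different range) on each array of the 6 potassium channel probes past 1% between rats of a sex; rats are on the horizontal axis (m male, f female), circles are nostril A, triangles nostril B, and colours the slides. Kcnmb3 was higher on all arrays of slides 1 and 2 (5.31 to 5.97) than on slides 3 and 4 (4.59 to 5.19), and the Kcnk6 probes shared 1 order of extremes.

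Past 5% but not 1% were Kcnj14 (F = 12.0, limma adjusted p = 0.0115), Kcnk12 (7.39, 0.0299), Kcnma1 (A_43_P15328, 6.71, 0.0357), Kcnj3 (A_44_P452163, 6.37, 0.0396) and Kcnh7 (5.71, 0.0485). Kcnj14, a Kir2-type rectifier, stood at 1.86, 1.60, 1.49 and 1.68 in males and at 1.09, 1.29, 1.58 and 1.97 in females, so that its largest difference was among the females. The Kcnj3 probe A_44_P452163 ran from -0.91 in male 1 to -1.69 in male 6 and from -1.33 in female 4 to -2.32 in female 7, unlike A_43_P12612 of the same gene. Kcnmb2, Kcnmb4, Kcna6 and the second Kcnma1 probe (A_44_P259947) had the next F values, from 4.90 to 5.37, with adjusted p-values from 0.0542 to 0.0638.

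Because rats and slides were partly the same, rats that shared a slide were compared within it (males 1 and 2, females 3 and 4, males 5 and 6, females 7 and 8). Female 3 entered by nostril B alone, her array on slide 2. Of the 66 probes, 0 passed 1% (0.00363% of all 27574 probes, 1 probe, did) or 5% (0.116% of all), and 11 had an unadjusted p under 0.05, beside 17.1% of all. The lowest adjusted p was that of Kcnq5 A_44_P953483 (F = 17.1, limma adjusted p = 0.0800): on a shared slide female 4 exceeded female 3 by 0.96, male 6 exceeded male 5 by 0.52 and male 2 lay below male 1 (-0.43 in nostril A). The Kcnk6 probes (F = 8.06 and 6.65) and Kcnmb3 (7.90) came next with Kcnh7 (7.82), at adjusted p-values from 0.176 to 0.194. Kcng1 and Kcnab2 had lower F values within slides, 2.27 and 2.81. Arrays 3B and 7A stood apart in the brain genes, and leaving them out was an alternative chosen after seeing the data. In the comparison of these pairs the limma adjusted p of Kcnq5 was then 0.0343, beside 227 of all 27589 probes past 5%. Female 3 then kept only nostril A on slide 1 and no longer shared a slide with female 4. Between rats of a sex, 3 of the 66 probes (Kcng1, Kcnmb3 and Kcnq5) then passed 1%, beside 351 of all.

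**Figure D5:**
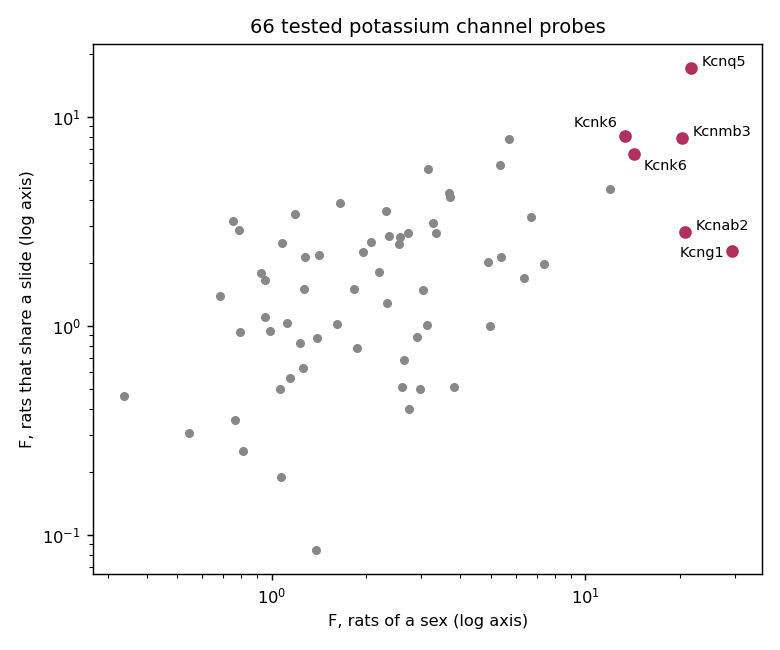
F for differences between rats of a sex (horizontal, log axis) and F for rats that share a slide (vertical, log axis); each point is 1 of the 66 tested potassium channel probes, and the 6 past 1% between rats of a sex are named. Kcnq5 was high on both axes (21.7 and 17.1), while Kcng1 was highest across slides (29.4) but low within them (2.27).

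Other proteins of potassium handling were followed on lists of partner genes. Of the accessory proteins that join potassium channels, 5 of 9 listed genes were on the array (Dpp6, Dpp10, Abcc8, Abcc9 and Lrrc38) and 0 of their 5 probes passed 5% in any comparison. Dpp10, which attaches to Kv4 pores such as Kcnd2, was unequal between nostrils like Kcnd2, by -0.96, at least 2.45, 1.12, -1.89 or lower, 1.95, -1.42 or lower and 0.49 in rats 2 to 8. The neuronal chloride extruder Slc12a5 (A_42_P589025, SD 0.93) exceeded the SD of 0.5 as well. Of 11 tested probes of sodium and proton pumps that import potassium, 0 passed 1% (2.79% of all probes did) and 1, of the gastric proton pump Atp4a, passed 5% (16.1% of all) between rats (A_44_P475467, F = 9.09, limma adjusted p = 0.0204). Of 9 tested probes of cation-chloride cotransporters, 1 passed 1% between rats and 3 passed 5%, beside the same shares of all probes. The one past 1% was of Slc12a2 (NKCC1), which brings potassium and chloride into olfactory neurons, and stood at 3.49, 3.31, 2.91 and 2.76 in males and 3.61, 3.50, 2.91 and 2.65 in females on A_44_P163408 (F = 42.8, limma adjusted p = 0.000543). Like Kcnmb3 it was higher in rats 1 to 4 than in rats 5 to 8 of either sex. Its other probe, A_44_P134405, stood at 4.87, 4.74, 4.79 and 4.90 in males and 5.30, 5.27, 4.96 and 4.84 in females (F = 7.84, adjusted p = 0.027), without that order in the males. A probe of Slc12a7 (A_44_P866091), a potassium-chloride exporter, passed 5% too (adjusted p = 0.0431). None of the partner probes passed 5% between the sexes, between nostrils or within slides.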

How the data were processed

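RNA of 15 samples of rat olfactory epithelium had been labelled with Cy3 by the authors and hybridized singly to Agilent whole rat genome arrays. The deposited scanner files hold spot intensity, with background subtracted and spatial trends removed by Agilent Feature Extraction, not scaled between arrays. The deposited ratio table, in which the authors divided each signal by the array median and then by the probe median, served as an alternative. Flags for background and outliers are of the same software.

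Signals were divided by the array median (57.4 to 83.4), as in the methods of the study. Outlier spots (61 to 175 per array), which the study kept as marginal, were left out here, and spots of 1 probe averaged. Values under 0.1 of the median were set to that floor before log2 was taken. Tested probes were detected on at least 7 arrays. Tests were run in limma 3.58.1 (R 4.3.3; lmFit, eBayes with trend), two-sided, with Benjamini-Hochberg adjustment over all tested probes at 1%, and checked on simulated data. The sexes were compared on 8 rat means and nostrils with rat as a block. Rats were compared by F over 6 contrasts within a sex, and over the contrasts of pairs that shared a slide. Fits on arrays used 27574 probes, since others lacked a spot. With arrays, precision is limited by the number of animals. A probe was a member where its gene name, less a suffix for predicted or mapped genes, began with Kcn. Named probes were those past 1% (or else 5%), the 10 with the lowest p in each comparison (15 highest and 5 lowest F for rats), genes with probes of opposite classes, and partners past 1% or among the 3 highest F. The members and gene lists were chosen with earlier results of these data known, and the brain lists after the values were seen. Alternatives were other scalings, background correction, floors, filters, the methods' t-test, slide or rat as a block, the ratio table and leaving out each rat. Of the 106 probes, 84 matched a RefSeq transcript of GRCr8 by accession, all under the same symbol. Sequences are those of the array files, and positions use their build, rn3. The rats came from 2 suppliers. The labels give neither supplier nor side (left or right), and neither was analysed here. The methods tie the sample lost to low RNA integrity to the left side of a male from Elevage Janvier, and male 1 is the only rat without nostril B here; the supplier of the other rats stays unassigned. Values of some genes are not reported here.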

Additional observations from a re-analysis of the deposited data

Results flagged for a closer look

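In each sex, the 66 tested potassium channel probes were searched for a rat far from the other 3 of its sex, and 3 of 132 groups held one (2.27%), where chance flags about 1 in 20. Kcnj12, an inward rectifier, stood at 1.94 in male 2 and between 0.95 and 1.03 in the other males. It is one of the 7 probes that differed most between nostrils, and nostril B of male 2 held its highest value of any array, 2.17. Kcne3, an auxiliary subunit, stood at 2.33 in male 6 and between 1.56 and 1.68 in the other males. Kcnip4, an accessory protein of Kv4 channels, stood at 0.77 in female 4 and between 1.00 and 1.03 in the other females.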

How the results depend on the processing

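At 1%, 0 potassium channel probes differed between nostrils, and 0 showed a nostril difference that depended on sex, under every alternative run. Between the sexes at 1% the count of 0 became 2 with the 15 arrays treated as independent, beside 1031 of all 27574 probes. With the methods' t-test it became 2, beside 880 of all. Both times these were Kcnn4 and Kcns3. The main fit called 12 of all 27625 probes. At 5% the main count was 1, beside 20 of all 27625 probes. It became 0 with a filter of 11 arrays (7 of all) and 0 with no filter (54 of all). With the deposited ratio table it became 0 (1 of all). It became 3 with independent arrays (3486 of all) and 3 with the methods' t-test (3261 of all). With rat as a random block (correlation 0.434) it became 2 (936 of all). With slide as a block the sexes are compared on slide 1 alone, with 1 female array, so no count is given. There Kcng1 differed by -2.22 and Kcnk12 by 0.60, while Kcnn2 turned to -0.41 and Kcnk9 to -0.37. Leaving out each rat gave 0 to 1 between the sexes at 5%, beside 12 to 19 of all probes. No paired analysis was possible because males and females share no replicate numbers. Between rats of a sex the count of 6 at 1% (768 of all 27574 probes) became 0 with slide as a block (72 of all). It became 3 without arrays 3B and 7A, chosen after seeing the data (351 of all). At 5% the count of 11 (4442 of all) became 2 with slide as a block (557 of all). The 1% count was 4 with the deposited ratio table (374 of all). It was 7 with the 75th percentile (1305 of all) and 7 with quantile scaling (1450 of all). With no filter it was 7 (980 of all), and 5 of these 7 were probes detected on 0 arrays with 13 or 14 values at the floor. With normexp it was 8 (1518 of all). The 5% counts in this order were 11, 14, 14, 15 and 16. All probes past 5% numbered 3232, 5568, 5719, 3502 and 5898. Leaving out each rat gave 2 to 5 at 1%, beside 186 to 898 of all probes. There were 2 without male 6 and 2 without female 8, 3 without female 3 and 3 without female 7. At 5% it gave 6 to 15, beside 1960 to 5705 of all. Within slides the count of 0 became 6 with no filter, beside 602 of all 40820 probes. All 6 were probes detected on 0 arrays with 13 or 14 of 15 values at the floor. Calling any positive and significant signal detected left 3 potassium channel probes not expressed in place of 27. Where no cause is stated, the cause was not tested. Leaving out each rat gave 61 to 64 expressed, 15 to 18 weakly expressed and 27 to 29 not expressed probes. Dim probes bound what could be seen: 40 of the 106 probes were not tested.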
